A study of Mus musculus with 4 samples.

Results

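Dlk1, Gata2, Gata3, Runx1t1, Hes1, Twist1 and Shh are 7 of the 84 genes of a mouse adipogenesis PCR array, chosen by gene symbol as regulators that hold back the formation of fat cells. Their expression is described here in mouse liver. Livers came from male C57BL/6J mice aged 2 months when divided into groups, which for 5 weeks received a normal diet (ND, with fat as 10% of kcal, carbohydrate as 70% and protein as the rest) or a high fat diet (HFD, with fat as 60% of kcal and 20% each of protein and carbohydrate). On each diet, 3 mice also received by gavage every 2 days a pool of small RNAs from the plant *Moringa oleifera* (the *mol*-miR pool, groups ND + pool and HFD + pool) and 3 did not, and no other allele or agent is named. The deposited Ct table holds 1 liver sample per group, with low-fat diet as the column name for ND, and whether a sample pooled several mice is not stated. There was therefore no replicate check, and no difference given here has a p-value.

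Fat cells arise from preadipocytes when the transcription factors C/EBP beta and C/EBP delta induce PPAR gamma and C/EBP alpha, which then maintain the mature state. Several of the 7 genes are known to act against this sequence at different points, as secreted or membrane-bound signals, as DNA-binding repressors or as a corepressor. Twist1 is known instead from its binding of PGC-1 alpha in brown fat. In the adult liver, Dlk1 is best known from fetal hepatoblasts and regenerating tissue, Shh from injured liver, and Hes1 as a target of Notch signaling in bile duct formation. GATA2 and GATA3 are known there mainly from endothelial and immune cells, so a change in whole liver RNA cannot separate fewer cells of a type from less RNA per cell.

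The array reports a threshold cycle (Ct) for each gene, and a later Ct means less template. The level of a gene is given as its Ct minus the mean Ct of 5 reference genes (Actb, Gapdh, Gusb, Hprt and Hsp90ab1), and 1 cycle is taken as a factor of 2. A difference between a pair of samples is a log2 fold change, and values in parentheses after it are the lowest and highest obtained when each reference gene was used alone. Fold changes above 1.5 were called upregulated and those below 0.5 downregulated. The mean reference Ct lay between 21.6 and 22.2. The 4 array genes used here as hepatocyte markers (Agt, Nr0b2, Ppara and Insr) had a Ct in every sample, from 23.3 to 28.8. The genomic DNA control, whose primers detect an untranscribed stretch of DNA, came up at cycle 26.8 in ND, 28.8 in ND + pool, 34.7 in HFD and 33.4 in HFD + pool. Of the 3 positive PCR control wells of each plate, 2 gave a Ct in ND, 3 in ND + pool, 1 in HFD and 1 in HFD + pool. Their mean Ct was 17.4, 18.4, 21.2 and 22.0 in the same order. Of the 3 reverse transcription control wells, 2 gave a Ct in ND + pool and 0 in each other sample.

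Directions follow the column names. For HFD vs. ND, HFD + pool vs. HFD and HFD + pool vs. ND they are mostly opposite to the directions that the study describes. No well of the plate shows from which diet a column came, and whether the columns of the mice without the pool are exchanged was not tested. The Ct values of each column do not depend on this, but the sign of a diet or pool difference that uses the column ND or HFD can change with it. Values with these columns exchanged are therefore given beside a part of the main results, a choice made after seeing the data. Where no exchanged value is given, a direction that uses the column ND or HFD holds only as labelled. HFD + pool vs. ND + pool is the comparison that an exchange leaves as it is. The study reports Shh as upregulated in HFD vs. ND, and Gata2 and Gata3 as downregulated in HFD + pool vs. HFD. Those are the directions with the columns exchanged and not those as labelled. The study also gives HFD vs. ND fold changes for predicted targets of the pool shared by human and mouse. Each is near, and somewhat below, the inverse of the fold change as labelled, except that of Agt. The study lists Shh as upregulated in HFD + pool vs. ND, which neither order of the columns gives.

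The 7 members separated into groups by how much their Ct moved. Dlk1, Gata2, Gata3 and Runx1t1 were earliest in the sample labelled ND and latest in the sample labelled HFD. Twist1 followed the same order with smaller steps, Hes1 stayed within 0.992 cycles over the 4 samples, and Shh was the one member without a Ct in a sample. In HFD vs. ND, 6 of the 7 members were downregulated, where 72.6% of all 84 genes were, and 0 were upregulated (3.57% of all genes). With the columns exchanged, the same 6 members were upregulated and 0 downregulated, where 79.8% and 1.19% of all genes were. The median log2 fold change was -4.85 for the members and -2.53 for the 84 genes as labelled. In the genomic DNA control well, normalized in the same way, the difference was -7.55, and 83 of the 84 genes lay above it.

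**Figure D1:**
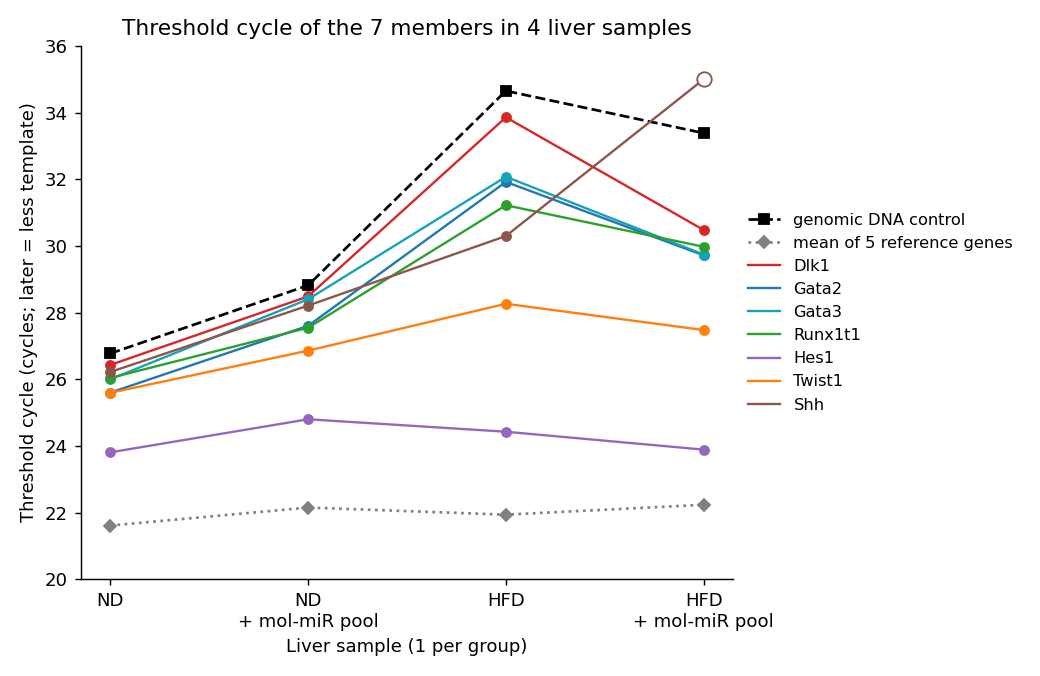
Ct in cycles (vertical axis) of the 7 members, the genomic DNA control and the mean of the 5 reference genes in the 4 liver samples (horizontal axis, 1 sample per group, lines only guide the eye). The open circle is Shh in HFD + pool, which had no Ct and was set to 35; 6 of the 7 members lie within 0.837 cycles of each other in ND and spread over 5.59 cycles in HFD.

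Dlk1 (preadipocyte factor 1) is a membrane protein with EGF-like repeats whose shed extracellular part keeps preadipocytes undifferentiated. Its well crossed the threshold at cycle 26.4 in ND, 28.5 in ND + pool, 33.9 in HFD and 30.5 in HFD + pool. HFD was the sample with the latest Ct, and HFD + pool lay between it and the samples of ND mice. The level in HFD was 138-fold lower than in ND (log2 fold change -7.10, from -8.07 with Actb alone to -6.36 with Hprt alone), the third lowest of the 84 genes. Between HFD + pool and HFD the log2 fold change was 3.68 (2.87 to 4.69), the third highest, and both of these comparisons use the same HFD sample. Relative to ND, the level in HFD + pool was 10.7-fold lower (log2 fold change -3.42, -4.64 to -1.87). With the columns exchanged, Dlk1 was the third highest gene in HFD vs. ND (7.10), and HFD + pool vs. HFD was -3.42 instead of 3.68. Among members with a Ct, Dlk1 was also the closest to the genomic DNA control, at 0.343 cycles in ND, 0.333 in ND + pool, 0.793 in HFD and 2.91 in HFD + pool. The Ct of the control itself was 7.88 cycles later in HFD than in ND, against 7.43 cycles for Dlk1, and the part of this signal in the result was not tested.

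RefSeq lists 250 bases before the start of a Dlk1 transcript in which GATA, the letters bound by GATA factors, and TGTGGT, the RUNX motif, each occur once. The stretches of 30 bases around them are shown because GATA2 and GATA3 are members and because RUNX1T1 is named after its fusion with the RUNX factor RUNX1. Both are written 5′ to 3′ on the plus strand of GRCm38.p6, with the motif in capitals, and the stretches overlap but the motifs do not.
Dlk1 GATA (chr12:109452647-109452676): tatgtttcagaatGATAaggcccagactgt
Dlk1 RUNX (chr12:109452668-109452697): ccagactgtgacTGTGGTacctgcgagagg
Counted on both strands in windows of the same length, GATA occurs in 53.6% and TGTGGT in 14% of the 32851 windows of the table. The TATA motif TATAAA, the Hes1 motif CACNAG (N-box), the E-box CANNTG and the GLI motif GACCACCCA of hedgehog signaling were not found in the Dlk1 window.

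Shh (sonic hedgehog) is the secreted ligand that binds Patched and so activates Smoothened and the GLI factors, and hedgehog signaling keeps mesenchymal precursors from becoming fat cells. Its Ct was 26.2 in ND, 28.2 in ND + pool and 30.3 in HFD, and the well of HFD + pool was undetermined. The log2 fold change was -3.75 (-4.72 to -3.01) in HFD vs. ND and -1.45 (-1.99 to -0.71) in ND + pool vs. ND. With the missing Ct set to 35, it was -4.41 (-5.21 to -3.40) in HFD + pool vs. HFD, the lowest of the 84 genes and the one value below 0.5 among them (1.19%). Without this well, Shh has no value in that comparison. The latest Ct that any of the 84 genes gave in HFD + pool was 31.7, and the genomic DNA control of that sample gave 33.4. In the other samples, the Shh well was 0.555 (ND), 0.608 (ND + pool) and 4.36 cycles (HFD) earlier than the control.

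Gata2 and Gata3 encode zinc finger factors of preadipocytes that repress the Pparg promoter and bind C/EBP proteins, and their levels moved almost in parallel. For Gata2, Ct values were 25.6 in ND, 27.6 in ND + pool, 31.9 in HFD and 29.7 in HFD + pool. For Gata3, they were 26.0, 28.4, 32.1 and 29.7 in the same order. Both genes were highest in ND and lowest in HFD. After each gene was centered on its own mean, the normalized profiles of Gata2 and Gata3 over the 4 samples differed by a root mean square of 0.294 cycles, the smallest value among the 21 pairs of members. In HFD the level was 63.8-fold lower than in ND for Gata2 (log2 fold change -5.99, -6.96 to -5.25) and 53.8-fold lower for Gata3 (-5.75, -6.72 to -5.01). The level was 5.66-fold higher for Gata2 (log2 fold change 2.50, 1.70 to 3.51) and 6.19-fold higher for Gata3 (2.63, 1.83 to 3.64) in HFD + pool vs. HFD. With the columns exchanged, these values became -3.49 and -3.12.

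The *mol*-miR pool on ND gave a log2 fold change of -1.46 for Gata2 (-1.998 to -0.73) and -1.86 for Gata3 (-2.40 to -1.12), which made Gata3 the fifth lowest of the 84 genes in that comparison. In HFD + pool vs. ND + pool, the corresponding values were -2.03 (-2.71 to -1.21) and -1.26 (-1.94 to -0.44). With Gapdh or Actb alone, Gata3 was not called downregulated there. The distance to the genomic DNA control was 1.17 cycles for Gata2 and 0.774 for Gata3 in ND, and 2.73 and 2.58 in HFD.

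The upstream sequence of Gata2 and the matching stretches of Gata3 are shown because both levels moved together and both windows hold the N-box, the motif of the Hes1 repressor. The Gata2 window of 250 bases ends at the annotated start of the gene on the plus strand of GRCm38.p6 (chr6:88193641-88193890), and those of Gata3 lie on the minus strand. Capitals mark the N-box, read as CACNAG or, on the other strand, CTNGTG.
Gata2: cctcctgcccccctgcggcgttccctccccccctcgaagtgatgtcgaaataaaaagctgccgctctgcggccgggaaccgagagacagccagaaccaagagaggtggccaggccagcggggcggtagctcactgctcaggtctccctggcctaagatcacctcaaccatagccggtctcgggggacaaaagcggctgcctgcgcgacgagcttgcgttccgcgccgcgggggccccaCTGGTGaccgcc
Gata3 (chr2:9878615-9878644): cggcgcggatgaCACTAGaacctccttaag
Gata3 (chr2:9878677-9878706): ggttgcagtttcCTTGTGctgaggatcgtg
An N-box occurs in 36.7% of all windows of this length. The second Gata2 start in the table has none. The share of G and C was 67.2% in the Gata2 window printed and 70% in the Gata3 window, against a median of 52.4% over all windows.

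Runx1t1 (MTG8 or ETO) is a corepressor that holds back C/EBP activity early in adipogenesis. It had a Ct of 26.0 in ND, 27.5 in ND + pool, 31.2 in HFD and 29.97 in HFD + pool. The HFD samples were both later than the ND samples. Its log2 fold change was -4.85 (-5.82 to -4.11) in HFD vs. ND and 1.54 (0.74 to 2.55) in HFD + pool vs. HFD. When the reference was instead the median of all array genes with a Ct, the latter was 0.29, between the limits. In HFD + pool vs. ND + pool it was -2.35 (-3.02 to -1.53), the lowest value among the members with a Ct in all samples. Its well preceded the genomic DNA control by 3.43 cycles in HFD and 3.41 in HFD + pool.

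Hes1, a basic helix-loop-helix repressor and Notch target, differed from the other members. Its Ct was 23.8 in ND, 24.8 in ND + pool, 24.4 in HFD and 23.9 in HFD + pool. The samples of the diets overlapped. HFD vs. ND gave a log2 fold change of -0.29, which ranged from -1.26 with Actb alone to 0.45 with Hprt alone, so its sign depended on the reference. The comparison of HFD + pool vs. HFD gave 0.83 (0.03 to 1.84), a fold change of 1.78, and that of HFD + pool vs. ND + pool gave 0.99 (0.32 to 1.81), a fold change of 1.99. Hes1 preceded the genomic DNA control by 2.97 cycles in ND and by 10.2 in HFD. Relative to the median of the 84 genes, which was -2.53 in HFD vs. ND, its difference was 2.24 higher.

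Twist1 is a basic helix-loop-helix factor that binds PGC-1 alpha (Ppargc1a) in brown fat and damps its targets. Ct values of 25.6, 26.9, 28.3 and 27.5 were measured in ND, ND + pool, HFD and HFD + pool. Twist1 was latest in HFD, as most members were, by 2.67 cycles relative to ND. Its log2 fold change in HFD vs. ND was -2.35 (-3.31 to -1.60), close to the array median, and became 0.34 when the array median served as the reference. For HFD + pool vs. HFD it was 1.09 (0.28 to 2.09), and -0.17 with the array median. The relation to ND was sensitive in the same way, since HFD + pool vs. ND gave -1.26 with the 5 reference genes and 0.29 with Gapdh alone. The upstream window of Twist1 is printed because it was the one member window with a TATA motif (TATAAA, in capitals), which 12.4% of all windows hold. It ends at the start of the gene on the plus strand of GRCm38.p6 (chr12:33957421-33957670). The motif lies near the middle of the window and not close to the start, and whether it is used was not tested.
Twist1: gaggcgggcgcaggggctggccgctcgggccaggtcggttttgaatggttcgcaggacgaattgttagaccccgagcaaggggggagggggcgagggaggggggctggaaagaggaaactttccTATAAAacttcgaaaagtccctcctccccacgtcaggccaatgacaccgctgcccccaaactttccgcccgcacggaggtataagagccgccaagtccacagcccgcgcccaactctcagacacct
For Runx1t1, Hes1 and Shh no upstream sequence is printed.

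**Figure D2:**
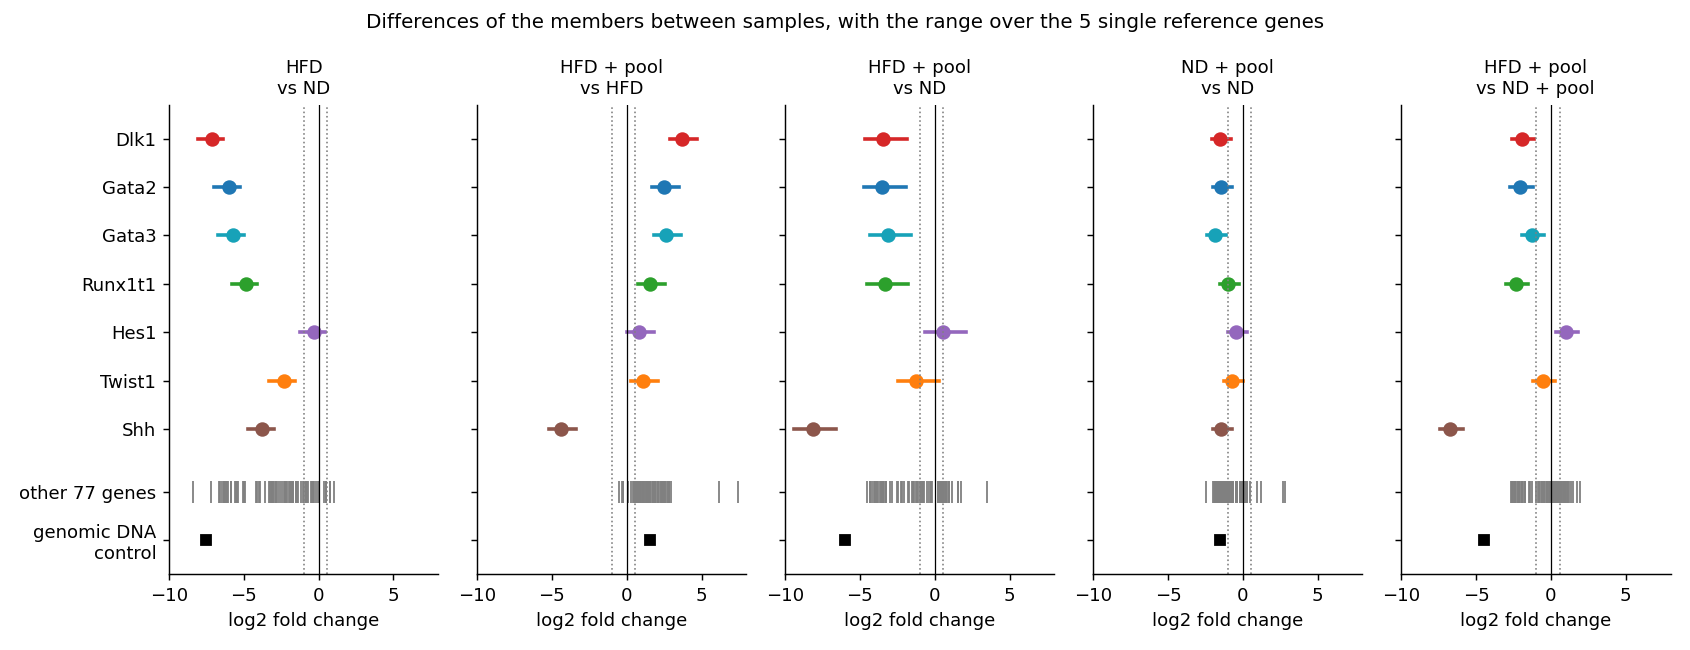
log2 fold change (horizontal axes) of the 7 members in 5 comparisons (panels). Points use the mean of the 5 reference genes, bars run from the lowest to the highest value with a single reference gene, gray ticks are the other 77 genes, black squares are the genomic DNA control and dotted lines mark fold changes of 0.5 and 1.5; Dlk1 lies at -7.10 in HFD vs. ND, next to the control at -7.55, while Hes1 lies at -0.29.

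In HFD + pool vs. HFD, 6 of the 7 members were upregulated, as were 84.5% of all genes, and Shh was downregulated. With the columns exchanged, 6 members were downregulated there (53.6% of all genes) and Hes1 lay between the limits. The median was 1.54 for the members and 1.46 for the 84 genes. Relative to ND, 6 members were downregulated in HFD + pool (53.6% of all genes) and 0 upregulated (14.3%), with a median of -3.31 against -1.24. Hes1 was the member between the limits. In ND + pool vs. ND, Dlk1, Gata2, Gata3 and Shh were downregulated, 4 of 7 (48.8% of all genes), and 0 were upregulated (4.76%). Between the diets with the pool (HFD + pool vs. ND + pool), 5 members were downregulated (34.5% of all genes), Hes1 was upregulated (23.8%) and Twist1 lay between the limits at -0.53. The median there was -1.91 for the members and -0.22 for all genes. In that comparison, the genomic DNA control differed by -4.48.

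The *mol*-miR pool was given on both diets, and these comparisons use different samples. On ND, the log2 fold change was below 0 for all 7 members, from -1.86 for Gata3 to -0.45 for Hes1, where Hes1 and Twist1 were above 0 with Gapdh alone (0.28 and 0.01). On HFD, it was above 0 for 6 members, from 0.83 for Hes1 to 3.68 for Dlk1. The same pattern of a lower level on ND and a higher level on HFD was present in 66 of the 84 genes. The difference between the diets was largest for Dlk1 among the members (5.19 on the log2 scale, the second highest of the 84 genes), followed by Gata3 (4.49) and Gata2 (3.96). The median difference was 2.51 for the members and 2.28 for all genes. This pattern rests on which column is ND and which is HFD. With the columns exchanged, the pool went with a higher level on ND and a lower level on HFD for 6 members, as for 54 of the 84 genes, and Dlk1 lay at 5.59 on ND and -3.42 on HFD.

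**Figure D3:**
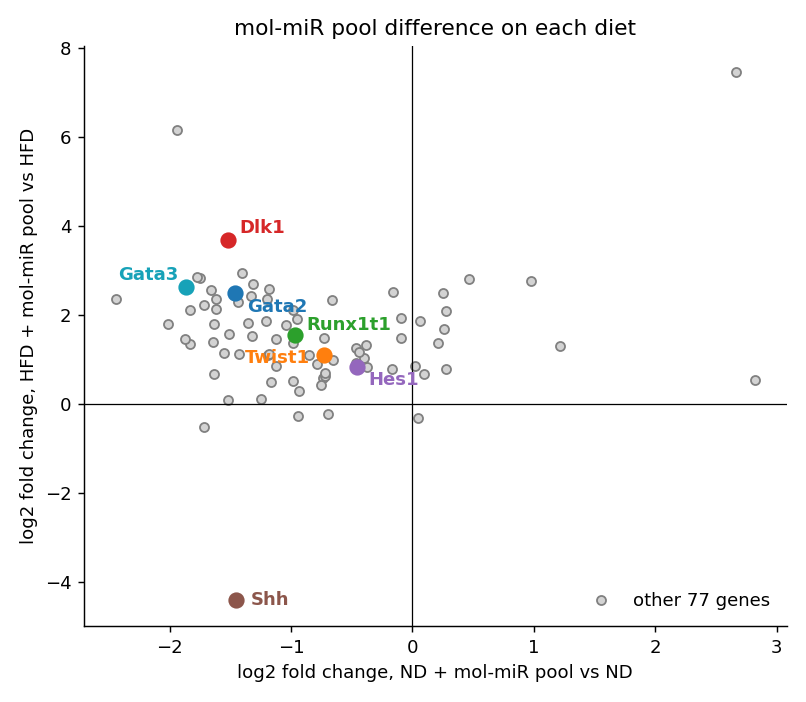
log2 fold change with the *mol*-miR pool on ND (horizontal axis) and on HFD (vertical axis) for each array gene (1 sample per group). Colored points are the members and gray points the other 77 genes; 6 members lie at the upper left with 60 other genes, and Shh, for which 35 replaced the missing Ct, lies at -4.41 on the vertical axis.

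Set against the genomic DNA control, the members ordered the samples differently. The control is described here by distance alone, since the efficiencies of its primers and of the gene primers are not known. In ND, 4 of the 7 members (Dlk1, Gata3, Runx1t1 and Shh) were less than 1 cycle earlier than the control, and all 7 were less than 3 cycles earlier. The same held for 27 and 63 of the 84 genes. In HFD, Dlk1 alone was within 1 cycle and 3 members were within 3 cycles, as were 4 and 18 of the 84 genes. The median distance of the members was 0.774 cycles in ND, 1.22 in ND + pool, 3.43 in HFD and 3.64 in HFD + pool, and that of the 84 genes was 1.35, 1.94, 6.18 and 5.92. From ND to HFD the distance grew for every member, by 0.45 cycles for Dlk1, 1.56 for Gata2, 1.80 for Gata3, 2.70 for Runx1t1, 3.80 for Shh, 5.21 for Twist1 and 7.26 for Hes1. Counted only where a well was at least 1 cycle earlier than the control in both samples, Gata2, Hes1 and Twist1 remained in HFD vs. ND, and Gata2 and Twist1 of these were downregulated. The part of the control's signal in the differences of the members was not tested.

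**Figure D4:**
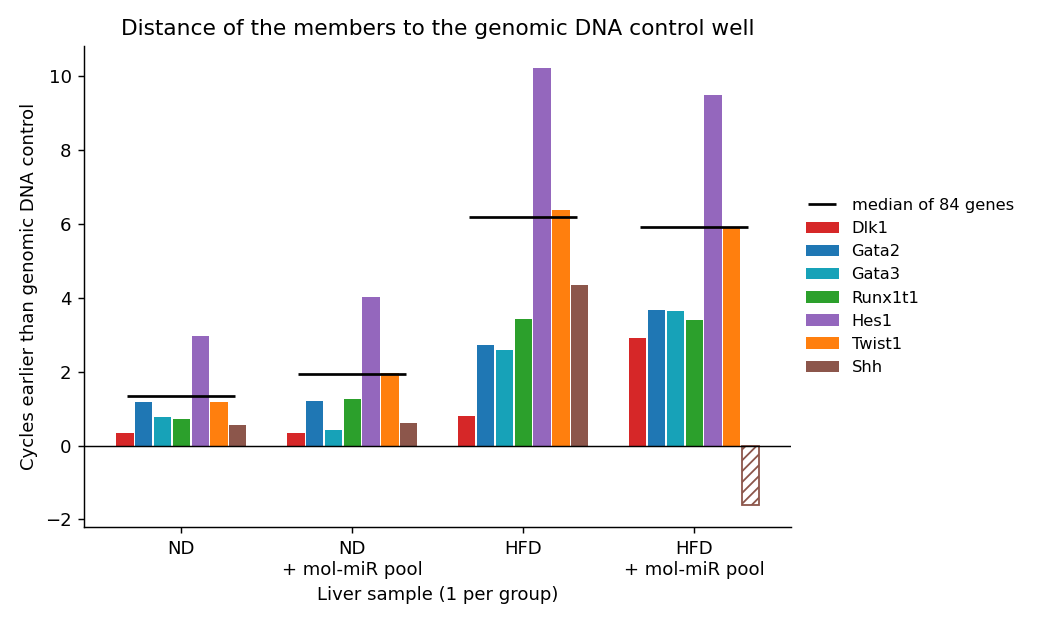
Cycles by which each member preceded the genomic DNA control of its plate (vertical axis) in the 4 liver samples (horizontal axis, 1 sample per group); bars below 0 are later than the control, black lines are the median of the 84 genes. Shh in HFD + pool is hatched because its missing Ct was set to 35; in ND the members lie between 0.343 (Dlk1) and 2.97 cycles (Hes1).

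The array genes with the profile most like each member over the 4 samples were sought by the root mean square difference of centered normalized values. For Gata2 they were Dio2 (0.0587 cycles), Prdm16 (0.0754) and Wnt3a (0.105). For Dlk1 they were Foxc2 (0.288), Wnt1 (0.361) and Dkk1 (0.364), and for Gata3 Sfrp1 (0.205), Adipoq (0.271) and Vdr (0.281). Runx1t1 lay next to Bmp2 (0.176), Cebpd (0.251) and Adig (0.254). Hes1 had another set, Tsc22d3 (0.0730), Tcf7l2 (0.0754) and Irs2 (0.119), as had Twist1 with Insr (0.137), Nrf1 (0.201) and E2f1 (0.211). Shh, owing to its value of 35, had no close neighbor, the nearest being Axin1 at 1.98 cycles. The profile of the genomic DNA control was 1.06 cycles from Dlk1 and 1.06 from Gata2, 2.31 from Twist1 and 3.22 from Hes1. Of the 77 other genes, 3 were closer to Shh than the control was, 21 to Dlk1, 24 to Gata2, 35 to Runx1t1, 38 to Gata3, 75 to Twist1 and 77 to Hes1.

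Other array genes that restrain adipogenesis were taken as Wnt1, Wnt3a, Wnt10b, Klf2, Klf3, Ddit3, Sirt1, Sirt2, Foxo1 and Tsc22d3. In HFD vs. ND, 6 of these 10 were downregulated (72.6% of all genes) and 0 upregulated (3.57%). Their median log2 fold change was -2.09. The Wnt ligands, which act through beta-catenin, lay at -7.19 (Wnt1), -5.85 (Wnt3a) and -5.60 (Wnt10b), whereas Klf3, a repressor of the Cebpa gene, lay at 0.03 and Ddit3, which blocks C/EBP binding to DNA, at -0.31. In ND, Wnt1, Wnt3a and Wnt10b preceded the genomic DNA control by 0.799, 0.808 and 1.085 cycles, Klf3 by 1.08 and Ddit3 by 2.55. In HFD, the distances were 1.16, 2.51, 3.04, 8.67 and 9.79 in that order of genes. The control itself differed by -7.55 in HFD vs. ND, and its part in these values was not tested. With the pool on HFD, 9 of the 10 were upregulated (84.5% of all genes) and 0 downregulated (1.19%). In ND + pool vs. ND, 4 were downregulated (48.8% of all genes) and Ddit3 (1.22) was upregulated (4.76%).

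The adipogenic factors of the array differed among themselves. In HFD vs. ND, 4 of Pparg, Cebpa, Cebpb, Cebpd, Srebf1, Klf15 and Egr2 were downregulated (72.6% of all genes). Srebf1 alone was upregulated (3.57%), and the median was -1.16. Cebpd (-4.99) and Egr2 (-4.19), factors of early adipogenesis, were the lowest of them and lay within the range of the members. Srebf1 was at 0.75 and reached -0.21 with a single reference gene, so its sign depended on the reference. Pparg, repressed by GATA2 and GATA3 in preadipocytes, had Ct values of 23.3 in ND, 23.6 in ND + pool, 25.4 in HFD and 23.2 in HFD + pool. It differed by -1.73 (log2, -2.70 to -0.99) in HFD vs. ND and 2.49 (1.68 to 3.50) in HFD + pool vs. HFD, the same signs as those of Gata2 and Gata3. Cebpa, the alpha C/EBP factor, lay at -0.41 (-1.37 to 0.34) and 0.67 (-0.14 to 1.67) in these comparisons, so neither sign held with each reference gene. Ppargc1a, the partner of Twist1, lay at -0.87 (-1.84 to -0.13) and 1.09 (0.29 to 2.10). Each of these 3 genes preceded the genomic DNA control by at least 3.02 cycles in every sample. Cebpd and Egr2 preceded the control by only 1.435 and 1.32 cycles in ND, and by 3.995 and 4.68 in HFD.

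The array also holds genes made by mature fat cells. All 7 adipocyte genes used as markers (Adipoq, Lep, Retn, Cfd, Fabp4, Adig and Ucp1) had a Ct in each sample and were downregulated in HFD vs. ND (72.6% of all genes), with a median of -6.09, and all 7 were upregulated in HFD + pool vs. HFD (84.5%), with a median of 2.11. Relative to ND, 5 of the 7 were downregulated and 1, Cfd, was upregulated in both HFD + pool (median -3.59) and ND + pool (median -1.63). Of all genes, 53.6% and 48.8% were downregulated there, and 14.3% and 4.76% upregulated. The summed level of the 7 markers was 80.5% of the reference mean in ND, 111% in ND + pool, 13.02% in HFD and 159% in HFD + pool. Cfd (adipsin) alone made up 12.02%, 76.2%, 0.762% and 133% of the reference mean in the same order, and the other 6 genes summed to 68.4%, 34.6%, 12.3% and 25.3%. Without Cfd, the sum as labelled was thus highest in ND and lowest in HFD, as were the levels of Dlk1, Gata2 and Gata3. With the columns exchanged, that sum would be highest in HFD and lowest in ND. The summed level of the 4 genes used as hepatocyte markers was 71.4%, 65.6%, 53.9% and 76.9% in the same order of samples as labelled. In ND, Insr preceded the genomic DNA control by 0.918 cycles, Nr0b2 by 1.78, Agt by 3.26 and Ppara by 3.41. Among the adipocyte markers in ND, Retn, Adipoq, Ucp1, Lep and Adig preceded that control by 0.506, 0.914, 0.963, 1.22 and 1.39 cycles. Cfd preceded the control by 2.11 cycles and Fabp4 by 3.84. In HFD, the distances were 1.71, 2.16, 2.37, 2.69, 3.565, 5.68 and 9.63 in that order of genes. The part of the control's signal in these sums was not tested. Whether fat tissue in the samples had a part in the values of the members was not tested.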

How the data were processed

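Livers were extracted with TRIzol, and cDNA was run on a mouse adipogenesis RT2 Profiler PCR array with SYBR Green on an Applied Biosystems instrument. The authors deposited a score per well, the unnormalized Ct, for 96 wells and 4 samples. A further deposited table holds the authors' own fold changes and was not used. Missing Ct values (2 of the array genes' wells) were set to 35, and no Ct lay above 35. The mean Ct of the 5 reference genes was subtracted, and differences between samples were turned in sign to give log2 fold changes, assuming a doubling per cycle. With 1 sample and 1 well per gene and group, the spread between animals is unknown. The 3 positive PCR control wells had an SD of 0.0565 cycles in ND + pool, the one plate on which all 3 gave a Ct, and differed by 0.927 cycles between 2 wells in ND.

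The members, gene lists and the rule for naming genes (members, listed genes and the 3 array genes nearest to each member) were chosen with earlier results of these data known. 1 listed gene is not reported here. All 84 symbols were found in RefSeq (GRCm38.p6), which also gave upstream sequences for 4 members. Calculations were tested on simulated data and run in Python 3.11.15 with numpy 2.4.6, pandas 2.3.3 and matplotlib 3.10.9. Alternatives were single reference genes, the reference mean without Gapdh, the median Ct of the array, other treatments of missing or late wells, limits of 2 and 0.5 and, added after the data were seen, an exchange of the columns ND and HFD.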

Additional observations from a re-analysis of the deposited data

Results flagged for a closer look

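The *mol*-miR pool went with a lower level on ND and a higher level on HFD for 6 members, and the difference between the diets was not tested, since each rests on 1 sample per group. The log2 fold change on HFD minus that on ND was 5.19 for Dlk1, 4.49 for Gata3, 3.96 for Gata2, 2.51 for Runx1t1, 1.81 for Twist1 and 1.29 for Hes1. Of all 84 genes, 67 had opposite signs on the diets. The genomic DNA control differed by -1.50 with the pool on ND and by 1.57 on HFD. The pattern rests on the column names, since with the columns of the mice without the pool exchanged Dlk1 had a log2 fold change of 5.59 on ND and -3.42 on HFD, and HFD minus ND was negative for each member but Hes1 (0.70).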

How the results depend on the processing

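Of 367 values under an alternative planned at the start, 331 kept their call as upregulated, downregulated or between the limits. Another 5, called with the main settings, changed sign. Sign changes of values between the limits were not counted among these, such as Hes1 in HFD vs. ND (0.45 with Hprt alone, 0.25 with Gapdh alone). Some alternatives only left members out, so the values that remained could not change. Numbers of members earlier than the genomic DNA control are also among the 367. With the median Ct of the array, Twist1 was 0.34 in HFD vs. ND, -0.17 in HFD + pool vs. HFD and 0.17 in HFD + pool vs. ND, and Hes1 was -0.42 in HFD + pool vs. HFD. With Gapdh alone, Twist1 was 0.29 in HFD + pool vs. ND. Of 120 counts of members, 104 stayed within 1.5 times. With the median Ct, 1 member was upregulated in HFD vs. ND and 1 in HFD + pool vs. ND, 3 were upregulated in HFD + pool vs. HFD, and 0 were downregulated in ND + pool vs. ND. With Gapdh alone, 1 was upregulated in HFD + pool vs. ND and 1 downregulated in ND + pool vs. ND. In HFD + pool vs. ND + pool, 0 were upregulated with Gusb alone, Hsp90ab1 alone or a limit of 2. In HFD + pool vs. HFD, 0 were downregulated once Shh was left out for its missing or late Ct or its distance to the genomic DNA control. With wells at least 1 cycle earlier than that control, 2 were downregulated in HFD vs. ND, 2 in HFD + pool vs. ND, 1 in ND + pool vs. ND and 2 in HFD + pool vs. ND + pool, with fewer members counted. An exchange of the columns ND and HFD, added after seeing the data, turned HFD vs. ND to 7.10 for Dlk1, 5.99 for Gata2, 5.75 for Gata3, 4.85 for Runx1t1, 2.35 for Twist1 and 3.75 for Shh. HFD + pool vs. HFD became -3.42, -3.49, -3.12, -3.31 and -1.26 for the first 5 of these in that order, HFD + pool vs. ND 3.68, 2.50, 2.63, 1.54 and 1.09, and ND + pool vs. ND 5.59 for Dlk1, 4.53 for Gata2, 3.89 for Gata3 and 2.30 for Shh. Under this exchange, 6 members were upregulated and 0 downregulated in HFD vs. ND (79.8% and 1.19% of all genes). The same counts held in ND + pool vs. ND (71.4% and 2.38%). In HFD + pool vs. ND, 6 were upregulated (84.5%) and 1 downregulated (1.19%). In HFD + pool vs. HFD, 0 were upregulated (14.3%) and 6 downregulated (53.6%). No paired analysis was possible because each group has 1 sample.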
